A study of Homo sapiens with 24 samples.

Results

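U-2932 was compared with SU-DHL-10 before drug exposure, across all expressed genes. Both are human cell lines of diffuse large B-cell lymphoma. The comparison takes the 0 h RNA-seq libraries of these lines, 2 of U-2932 and 2 of SU-DHL-10, out of 16 RNA libraries and 24 samples in the series. Of 58676 gene IDs in the deposited count table, 17327 had enough counts to be tested.

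The series exposed 4 lymphoma lines to TAK-981, an inhibitor of SUMOylation, and read RNA and open chromatin at 0 h and later. U-2932 at 0 h and SU-DHL-10 at 0 h are both labelled wild type, and the 0 h samples carry the TAK-981 label with no hour of exposure. In the series text a line called SU-DHL4 takes the place of SU-DHL-10, and the name used here is that of the sample labels. Nothing in the labels tells whether replicates 1 and 2 are separate cultures; the spread behind each p-value may be technical only. As background, U-2932 is known to hold a pair of related clones, and each bulk library averages over its cells. The open chromatin libraries were not analysed here.

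Diffuse large B-cell lymphoma is divided by its expression into an activated B-cell type and a germinal-centre B-cell type. The germinal-centre type keeps genes of B cells that proliferate in the germinal centre under the repressor BCL6. The activated type has genes of B cells leaving the germinal centre towards plasma cells, among them the transcription factor IRF4, and its cells are known for NF-kB, B-cell receptor and JAK-STAT signalling. U-2932 is usually counted with the activated type and SU-DHL-10 with the germinal-centre type.

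The gene counts summed to 17223675 and 18544122 in U-2932, against 22772308 and 22185497 in SU-DHL-10. Levels are given as CPM (counts per 1000000), scaled by edgeR's TMM factors and not by gene length, so they compare libraries and not genes. Fold changes are U-2932 over SU-DHL-10 on the log2 scale, with a standard error (SE). A gene was called when the adjusted p of edgeR's quasi-likelihood test (Benjamini-Hochberg over all tested genes) was under 0.05. Added spike-in RNAs took 0.617% ± 0.00443 of the counts in U-2932 and 0.0494% ± 0.005 in SU-DHL-10 (SD, n = 2 each). Scaling by them would move the median log2 fold change of all genes by -3.59, to -3.51, and would give 1215 higher and 13920 lower genes. Every direction below is therefore relative to the bulk of the genes.

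U-2932 and SU-DHL-10 differed in most genes they express. The calls were 11901 of 17327 genes (68.7%), with 6325 higher in U-2932 (36.5%) and 5576 lower (32.2%). With at least a 2-fold difference required as well, 6956 genes (40.1%) were called, 4334 higher (25%) and 2622 lower (15.1%). The large differences were mostly higher in U-2932: 580 genes were higher and 102 lower by 256-fold or more on the fitted scale, which is no bound where a line has no counts. The median log2 fold change of all tested genes was 0.08, and 0.06 with genes at 0 counts in a line set at their bound. Any list below is to be read against these shares.

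**Figure D1:**
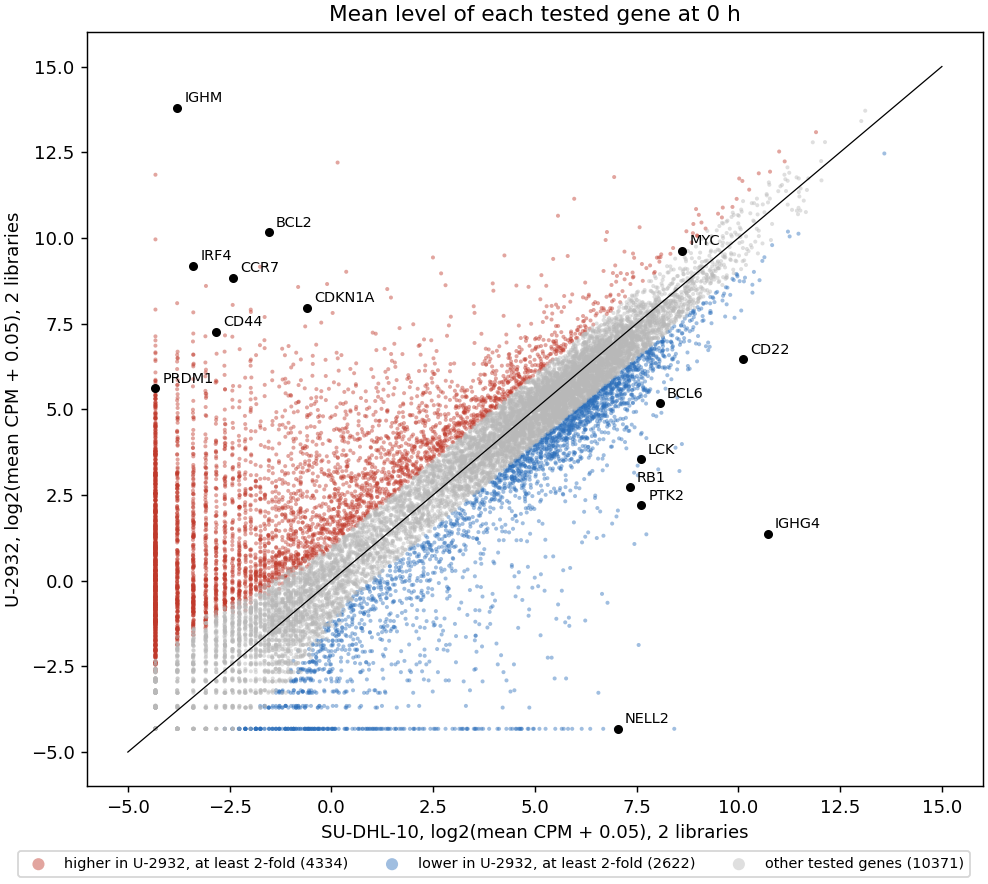
Each point is a tested gene, with its mean level in U-2932 (vertical axis) and SU-DHL-10 (horizontal axis), both as log2(CPM + 0.05) over 2 libraries. Red points are the 4334 genes at least 2-fold higher in U-2932, blue points the 2622 at least 2-fold lower, and the line marks equal levels; IGHM, IRF4 and BCL2 stand far above it and IGHG4 far below.

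Genes of the activated type were higher in U-2932 almost throughout. Of 28 tested members, 26 were higher and 1, FUT8, was lower. The list's median log2 fold change was 5.18, or 4.99 with zero genes at their bound, against 0.08 for all genes. IRF4, a driver of plasma cell differentiation, had 563 and 600 CPM in U-2932, against 0.0894 and 0 CPM in SU-DHL-10, where 2 reads were counted in all. The IRF4 ratio was 12865 with a 95% counting interval of 3561 to 106240. IRF4 was close to silent in SU-DHL-10.

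TNFRSF13B encodes TACI, a receptor for B-cell survival factors. It had 244 and 237 CPM in U-2932 and no count in SU-DHL-10, which makes it at least 3540-fold higher, with 3 counts over both SU-DHL-10 libraries as the floor. CREB3L2, a membrane-bound transcription factor, and CYB5R2, a cytochrome b5 reductase, averaged 96.3 and 33.6 CPM in U-2932, with 2 and 0 reads in SU-DHL-10. The serine kinases PIM1 and PIM2 are targets of cytokine signalling. PIM1 had 365 and 363 CPM in U-2932, against 2.01 and 3.07 CPM in SU-DHL-10 (log2 7.16, SE 0.11, edgeR adjusted p = 8.92e-33). PIM2 had 706 and 731 CPM in U-2932, against 21.0 and 17.0 CPM in SU-DHL-10 (log2 5.24, SE 0.09).

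Further members gave a graded picture. CCDC50, a ubiquitin-binding adaptor, had 492 and 508 CPM in U-2932, against 5.81 and 7.06 CPM in SU-DHL-10. BATF, an AP-1 family factor that works with IRF4, averaged 50.6 CPM in U-2932 and 0.361 CPM in SU-DHL-10. FOXP1, a forkhead factor, averaged 60.4 CPM in U-2932 and 2.53 CPM in SU-DHL-10. STAT3, the signal transducer of IL-6 and IL-10 receptors, was nearer between the lines, at 105 CPM in U-2932 and 30.5 CPM in SU-DHL-10 (log2 1.78). CCND2, cyclin D2, was low in both lines, with 6.25 and 5.52 CPM in U-2932 and 0 and 0.0458 CPM in SU-DHL-10. IL6 was not called and had 0.0536 CPM in U-2932 and no count in SU-DHL-10.

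**Figure D2:**
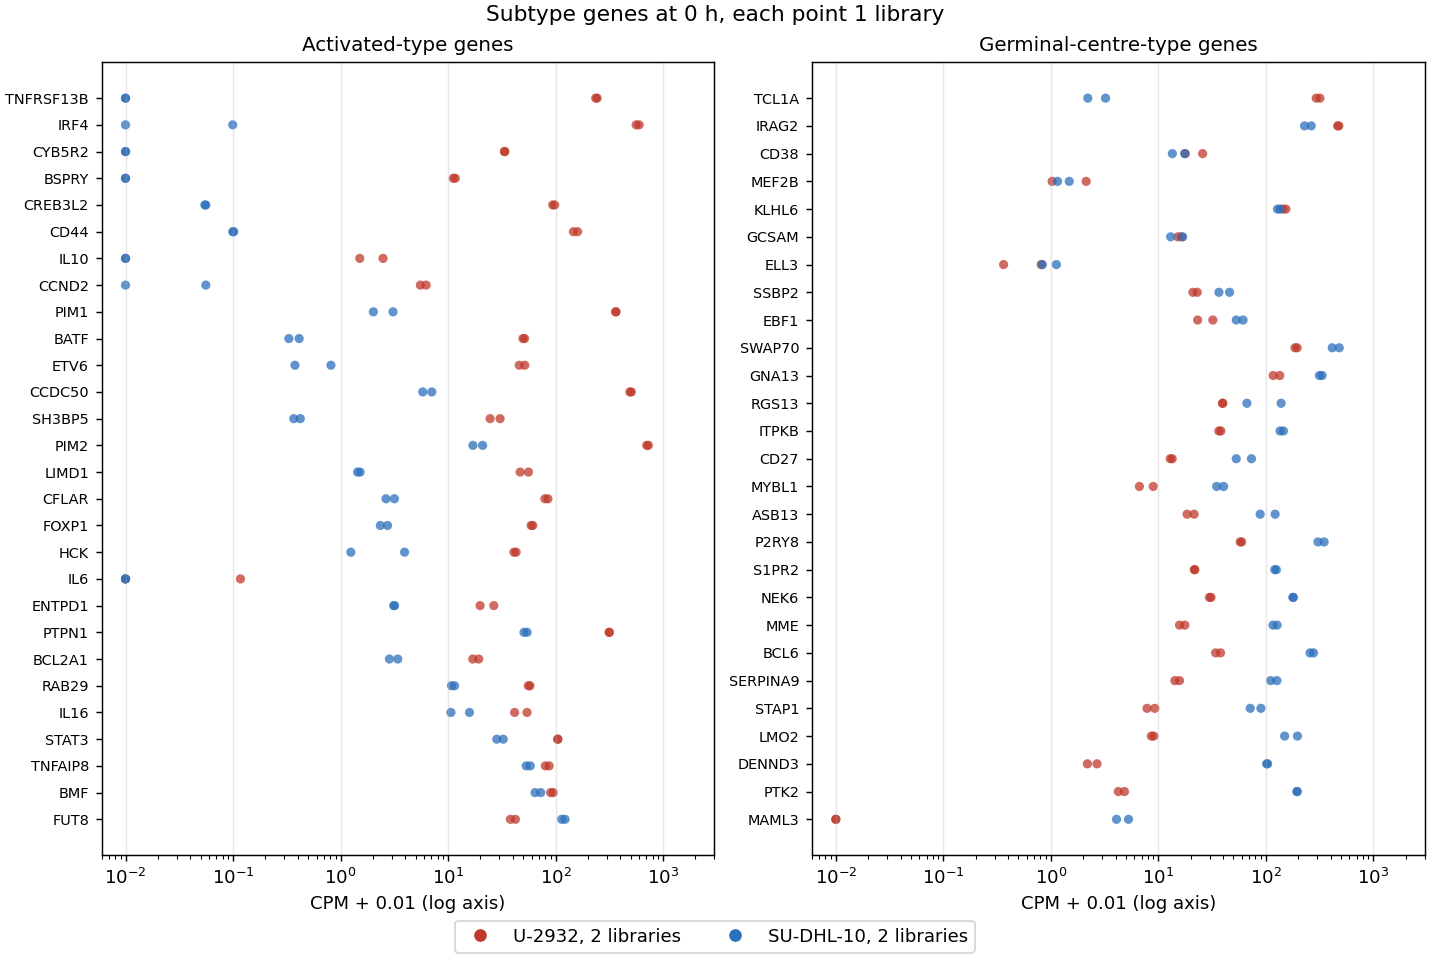
Each point is the level of a gene in 1 library at 0 h, as CPM + 0.01 on a log axis, with U-2932 in red and SU-DHL-10 in blue. Activated-type genes (left) lie higher in U-2932 except FUT8, and most germinal-centre-type genes (right) lie lower in U-2932, with TCL1A at the top as an exception.

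Most germinal-centre genes were lower in U-2932, by smaller folds. Of 28 tested members, 20 were lower, 19 of them at least 2-fold, and 5 were higher. The median was -2.09. BCL6, the repressor that holds B cells in the germinal centre, had 34.1 and 37.9 CPM in U-2932, against 278 and 258 CPM in SU-DHL-10 (log2 -2.89, SE 0.09, edgeR adjusted p = 4.39e-25). MME, which encodes CD10, had 15.7 and 17.6 CPM in U-2932, against 127 and 117 CPM in SU-DHL-10 (log2 -2.87, SE 0.10). So U-2932 still carried measurable BCL6 and CD10 transcript, below both SU-DHL-10 libraries.

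PTK2, focal adhesion kinase, and DENND3, a RAB exchange factor, had the smallest p-values among the lower genes. PTK2 had 4.83 and 4.23 CPM in U-2932, against 196 and 195 CPM in SU-DHL-10 (log2 -5.43, SE 0.10). DENND3 had 2.18 and 2.68 CPM in U-2932, against 104 and 102 CPM in SU-DHL-10 (log2 -5.39, SE 0.12). Among members outside the naming rule, picked after their values were seen, LMO2 averaged 8.83 CPM in U-2932 and 173 CPM in SU-DHL-10. SERPINA9 averaged 15 CPM in U-2932 and 119 CPM in SU-DHL-10, and S1PR2, the receptor that confines B cells to the germinal centre, 21.7 CPM in U-2932 and 123 CPM in SU-DHL-10. Each of these was lower in U-2932 in both libraries.

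Among the 5 members that were higher were TCL1A, IRAG2, CD38 and KLHL6. TCL1A, a coactivator of AKT, had 319 and 294 CPM in U-2932, against 3.22 and 2.20 CPM in SU-DHL-10 (log2 6.82, SE 0.11). ELL3, GCSAM and MEF2B were not called; GCSAM averaged 15.8 CPM in U-2932 and 14.9 CPM in SU-DHL-10. The germinal-centre list therefore did not move as a block.

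Genes of the B-cell lineage differed in both directions. Of 26 B-cell lineage genes, 10 were higher, 14 lower and 2 not called in U-2932, with a median of -0.22; 7 were higher and 7 lower by at least 2-fold. PAX5, the factor that maintains B-cell identity, had 153 and 170 CPM in U-2932, against 200 and 183 CPM in SU-DHL-10, a difference called at log2 -0.24 (SE 0.07). MS4A1, which encodes CD20, averaged 748 CPM in U-2932 and 1428 CPM in SU-DHL-10. CD22, an inhibitory receptor of the B-cell receptor, had 82.4 and 92.7 CPM in U-2932, against 1179 and 1032 CPM in SU-DHL-10 (log2 -3.66, SE 0.07). It was the lowest of the list, and the libraries of the lines lay far apart.

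BACH2, a repressor of plasma cell fate, lay opposite to BCL6. It had 39.6 and 40.8 CPM in U-2932, against 0.0447 and 0.0916 CPM in SU-DHL-10, a ratio of 593 with a counting interval of 202 to 2878 on 3 reads in SU-DHL-10. POU2F2, the octamer factor OCT2, had 685 and 690 CPM in U-2932, against 259 and 253 CPM in SU-DHL-10 (log2 1.43, SE 0.06). FCRLA, an Fc receptor-like protein, had 121 and 117 CPM in U-2932, against 553 and 497 CPM in SU-DHL-10 (log2 -2.14, SE 0.07).

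Plasma cell genes leaned to U-2932. Of 17 tested members 14 were higher, 12 of them at least 2-fold, and 1, SSR4, was lower; the median was 1.44. PRDM1 encodes BLIMP1, the factor that ends the B-cell programme. It had 45.2 and 52.3 CPM in U-2932 and no count in SU-DHL-10, at least 721-fold higher. XBP1, which builds up the secretory apparatus, had 265 and 267 CPM in U-2932, against 50.8 and 40.9 CPM in SU-DHL-10 (log2 2.53, SE 0.08). SDC1, which encodes CD138, averaged 13.3 CPM in U-2932 and 0.0905 CPM in SU-DHL-10. SEC11C, a signal peptidase subunit, had 2314 and 2206 CPM in U-2932, against 60.5 and 64.5 CPM in SU-DHL-10 (log2 5.18, SE 0.08).

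ELL2, an elongation factor needed for secreted immunoglobulin mRNA, showed how a few reads set a fold. It had 88.1 and 103 CPM in U-2932, against 0.134 and 0.321 CPM in SU-DHL-10, where 10 reads were counted (log2 8.69, SE 0.25). Without SU-DHL-10 replicate 2 the value was 9.41. JCHAIN and MZB1, of the immunoglobulin secretion route, were expressed by both lines, with JCHAIN at 460 CPM in U-2932 and 170 CPM in SU-DHL-10.

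The lines used different immunoglobulin constant genes. IGHM, the heavy chain of IgM, had 15048 and 13455 CPM in U-2932, the highest difference in level of any gene, against 0.0447 and 0 CPM in SU-DHL-10. Only 1 IGHM read was counted in SU-DHL-10, a ratio of 628213 with a counting interval of 112751 to 2.48e+07. IGKC, the kappa light chain, had 5010 and 4392 CPM in U-2932, against 1.16 and 0.962 CPM in SU-DHL-10 (log2 12.10, SE 0.11). IGHD averaged 23 CPM in U-2932 with no count in SU-DHL-10.

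The constant genes higher in SU-DHL-10 were of IgG and lambda, though not every IgG gene was among them. IGHG4 had 3.07 and 1.98 CPM in U-2932, against 1866 and 1512 CPM in SU-DHL-10 (log2 -9.40, SE 0.17). IGLC2, of the lambda light chain, averaged 114 CPM in U-2932 and 589 CPM in SU-DHL-10. IGHG3 went the other way, with 417 and 399 CPM in U-2932 and 15.8 and 15.3 CPM in SU-DHL-10 (log2 4.71, SE 0.09). The IGHG genes are near-identical copies, as are the IGLC genes, so which member holds the reads is uncertain. In all, 10 of 13 tested constant genes were higher in U-2932 and IGHG4, IGLC2 and IGHG1 were lower.

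Genes of the B-cell receptor chain differed in both directions, 13 higher and 12 lower of 27, with a median of 0.14, which was 0.24 without SU-DHL-10 replicate 1 and 0.022 without SU-DHL-10 replicate 2. PRKCB, the kinase that relays the signal to NF-kB, had 91.9 and 104 CPM in U-2932, against 4.42 and 1.01 CPM in SU-DHL-10 (log2 5.16, SE 0.19). The SU-DHL-10 libraries were apart here: without replicate 1 the value was 6.58 and without replicate 2 it was 4.46. BLNK, the adaptor of SYK, had 133 and 122 CPM in U-2932, against 28.5 and 26.4 CPM in SU-DHL-10 (log2 2.22, SE 0.09). SH3KBP1, a CIN85 adaptor, had 98.6 and 102 CPM in U-2932, against 287 and 272 CPM in SU-DHL-10 (log2 -1.48, SE 0.07). The kinases SYK and LYN were higher and BTK lower in U-2932, by log2 0.56, 0.74 and -1.07.

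NF-kB is held in the cytoplasm by IkB proteins until IkB kinase releases it. Its subunits and regulators were split, with 10 higher, 14 lower and 4 not called of 28 and a median of -0.12, which was -0.18 without U-2932 replicate 2 and -0.20 without SU-DHL-10 replicate 2. REL, which encodes the subunit c-Rel, had 6.66 and 8.85 CPM in U-2932, against 77.5 and 70.7 CPM in SU-DHL-10 (log2 -3.25, SE 0.11). IRAK1, a kinase of Toll-like receptor signalling, had 241 and 231 CPM in U-2932, against 1032 and 1118 CPM in SU-DHL-10 (log2 -2.19, SE 0.06). RELA was not called, at 125 CPM in U-2932 and 118 CPM in SU-DHL-10. The higher genes held several IkB proteins, which are NF-kB targets themselves. NFKBIZ had 79.9 and 89.8 CPM in U-2932, against 16.2 and 10.9 CPM in SU-DHL-10 (log2 2.64, SE 0.11). NFKBIE had 81.9 and 86.5 CPM in U-2932, against 23.2 and 19.5 CPM in SU-DHL-10 (log2 1.98, SE 0.09).

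NF-kB target genes were mostly higher in U-2932. Of 33 tested members 24 were higher, 18 at least 2-fold, and 7 lower, all 7 at least 2-fold, with a median of 1.21. CCR7, the receptor that guides cells to lymph nodes, had 465 and 451 CPM in U-2932, against 0.0894 and 0.183 CPM in SU-DHL-10 (log2 11.66, SE 0.14). CD44, a hyaluronan receptor also on the activated-type list, had 160 and 147 CPM in U-2932, against 0.0894 and 0.0916 CPM in SU-DHL-10 (log2 10.64, SE 0.25). CFLAR, an inhibitor of caspase-8, had 79.6 and 85.0 CPM in U-2932, against 2.64 and 3.16 CPM in SU-DHL-10 (log2 4.83, SE 0.11). These 3 genes were called, in a comparison where 68.7% of all tested genes were called.

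The chemokine CCL22 and the receptor IL2RA had no count in SU-DHL-10 and averaged 24.4 and 13.8 CPM in U-2932. The lower members were SLAMF1, LTB, TNF, LTA, FAS, TRAF1 and PLEK. LTB, lymphotoxin beta, averaged 9.15 CPM in U-2932 and 85.2 CPM in SU-DHL-10, and TNF averaged 11.9 CPM in U-2932 and 42.7 CPM in SU-DHL-10. The cytokines TNF, LTA and LTB, neighbours in the genome, were thus lower in the line with the higher target list. ICAM1 and RELB were not called, with ICAM1 at 26.3 CPM in U-2932 and 26 CPM in SU-DHL-10.

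The promoters of these genes were read from RefSeq (GRCh38.p14), from 250 bases before to 50 after each annotated start. A kB-like word, GGG and TTCC with 3 bases between them on either strand, stood in a promoter of 9 of 19 higher targets (47.4%), 2 of 7 lower ones (28.6%) and 9.75% of 11545 tested genes with a promoter. Targets were chosen for known control by NF-kB, and letters in a window are not sites. A pair of higher genes and a lower one are shown, with the kB-like match in capitals, to set the words beside opposite directions.
CFLAR, chr2:201118466-201118765, plus strand: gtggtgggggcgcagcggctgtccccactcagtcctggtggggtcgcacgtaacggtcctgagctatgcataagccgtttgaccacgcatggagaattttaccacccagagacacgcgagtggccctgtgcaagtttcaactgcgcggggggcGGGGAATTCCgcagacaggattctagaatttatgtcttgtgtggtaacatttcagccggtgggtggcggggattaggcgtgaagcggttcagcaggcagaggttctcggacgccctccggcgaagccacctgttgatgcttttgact
IL2RA, chr10:6062318-6062617, minus strand: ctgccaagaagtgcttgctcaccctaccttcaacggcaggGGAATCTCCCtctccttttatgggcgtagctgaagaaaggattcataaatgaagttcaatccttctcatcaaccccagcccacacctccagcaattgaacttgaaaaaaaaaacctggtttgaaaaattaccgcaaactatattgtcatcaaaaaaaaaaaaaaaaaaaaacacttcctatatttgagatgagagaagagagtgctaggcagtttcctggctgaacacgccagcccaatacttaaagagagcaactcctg
LTB, chr6:31582376-31582675, minus strand: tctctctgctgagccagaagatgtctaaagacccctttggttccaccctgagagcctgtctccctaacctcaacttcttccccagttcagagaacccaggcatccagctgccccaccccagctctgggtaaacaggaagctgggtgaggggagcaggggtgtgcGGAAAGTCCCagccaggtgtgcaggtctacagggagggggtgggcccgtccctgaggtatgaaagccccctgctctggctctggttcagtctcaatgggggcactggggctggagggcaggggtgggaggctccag
Each holds 1 match. CFLAR and IL2RA were higher in U-2932 and LTB lower, so the word stood on both sides of the comparison.

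JAK-STAT and cytokine genes were mostly higher in U-2932, 20 of 29 tested, against 5 lower, with a median of 1.20, or 1.12 with zero genes at their bound. IL10RA, the ligand-binding chain of the IL-10 receptor, had 172 and 177 CPM in U-2932, against 9.34 and 5.36 CPM in SU-DHL-10 (log2 4.56, SE 0.12). PTPN1, a phosphatase that acts on JAK kinases, had 316 and 316 CPM in U-2932, against 50.9 and 54.4 CPM in SU-DHL-10 (log2 2.59, SE 0.07). JAK2 averaged 10.4 CPM in U-2932 and 0.635 CPM in SU-DHL-10. SOCS2, SOCS3 and CISH, feedback inhibitors, had no count in SU-DHL-10 and averaged 3.09, 0.957 and 0.986 CPM in U-2932. STAT5B was lower, at 25.1 CPM in U-2932 and 92.3 CPM in SU-DHL-10.

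The BCL2 family was higher in U-2932 on both the death-blocking and the death-promoting side. Of 19 tested members 14 were higher and 1, BID, lower, with a median of 0.90. BCL2, the inhibitor of mitochondrial apoptosis, had 1105 and 1186 CPM in U-2932, against 0.268 and 0.321 CPM in SU-DHL-10 (log2 11.90, SE 0.14, edgeR adjusted p = 1.46e-36). PMAIP1, which encodes the BCL2 antagonist NOXA, had 1477 and 1729 CPM in U-2932, against 50.6 and 44.2 CPM in SU-DHL-10 (log2 5.08, SE 0.09). BCL2 and PMAIP1 lie near each other on chromosome 18. The antagonists BIK and BBC3 were low in SU-DHL-10. BIK had 48.3 and 41.8 CPM in U-2932, against 1.65 and 1.15 CPM in SU-DHL-10 (log2 5.0, SE 0.16). BBC3, which encodes PUMA, had 29.5 and 25 CPM in U-2932, against 0.581 and 0.641 CPM in SU-DHL-10 (log2 5.47, SE 0.20). MCL1 differed less, at 1390 CPM in U-2932 and 775 CPM in SU-DHL-10 (log2 0.84).

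RB1, RBL1 and RBL2 of the retinoblastoma family were lower in U-2932, and the CDK inhibitor genes CDKN1A and CDKN2A were higher. RB1, the pocket protein that restrains E2F, had 6.48 and 6.59 CPM in U-2932, against 172 and 150 CPM in SU-DHL-10 (log2 -4.62, SE 0.09). Its relatives RBL1 and RBL2 averaged 22.6 and 19.97 CPM in U-2932, against 68.8 and 73.3 CPM in SU-DHL-10. CDKN2A, which encodes p16 and ARF, had 537 and 512 CPM in U-2932, against 110 and 96.1 CPM in SU-DHL-10 (log2 2.35, SE 0.07). CDKN1A, which encodes p21, had 258 and 242 CPM in U-2932, against 0.313 and 0.916 CPM in SU-DHL-10 (log2 8.66, SE 0.15). Without SU-DHL-10 replicate 1 it was 8.07, and without replicate 2 it was 9.61. In both OCI lines of the series RB1 averaged 180 and 232 CPM, near SU-DHL-10. The list as a whole had 14 higher and 7 lower of 23, with a median of 0.74.

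Targets of p53 were higher in 17 of 26 and lower in 6, with a median of 1.37, or 1.12 with zero genes at their bound. GADD45A, a stress sensor, had 46.8 and 53.3 CPM in U-2932, against 4.07 and 3.44 CPM in SU-DHL-10 (log2 3.74, SE 0.14). FDXR, ferredoxin reductase of the mitochondria, had 43.7 and 45.9 CPM in U-2932, against 6.39 and 6.87 CPM in SU-DHL-10 (log2 2.76, SE 0.12). FAS and RRM2B, also p53 targets, were lower in U-2932.

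MYC, a transcription factor of cell growth whose gene is often rearranged in this lymphoma, had 779 and 807 CPM in U-2932, against 428 and 361 CPM in SU-DHL-10 (log2 1.01, SE 0.07). Genes of the MAX network and named MYC targets were 8 higher and 6 lower of 19, with a median of 0.14, which was 0.011 without U-2932 replicate 2 and 0.076 without SU-DHL-10 replicate 1. FBL, a nucleolar methyltransferase, had 1001 and 869 CPM in U-2932, against 448 and 475 CPM in SU-DHL-10 (log2 1.02, SE 0.06). LDHA, lactate dehydrogenase, had 991 and 971 CPM in U-2932, against 1696 and 1870 CPM in SU-DHL-10 (log2 -0.86, SE 0.06). Targets of the same factor therefore differed in opposite directions between the lines.

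Genes of replication and mitosis were lower in U-2932, by modest folds. Of 28 replication genes 25 were lower and 1, RFC4, higher, with a median of -0.77. Of 27 mitosis genes 20 were lower and 0 were higher by edgeR, by DESeq2 or at an unadjusted p under 0.05, with a median of -0.85. GINS1, of the replicative helicase, had 29.3 and 23.5 CPM in U-2932, against 134 and 140 CPM in SU-DHL-10 (log2 -2.38, SE 0.08). MKI67, the Ki-67 antigen, had 172 and 193 CPM in U-2932, against 560 and 736 CPM in SU-DHL-10 (log2 -1.83, SE 0.09). PLK1, CDC20, CCNB1 and AURKA were not called; PLK1 averaged 220 CPM in U-2932 and 242 CPM in SU-DHL-10. In bulk RNA, fewer cells in a phase and less RNA per cell cannot be told apart.

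**Figure D3:**
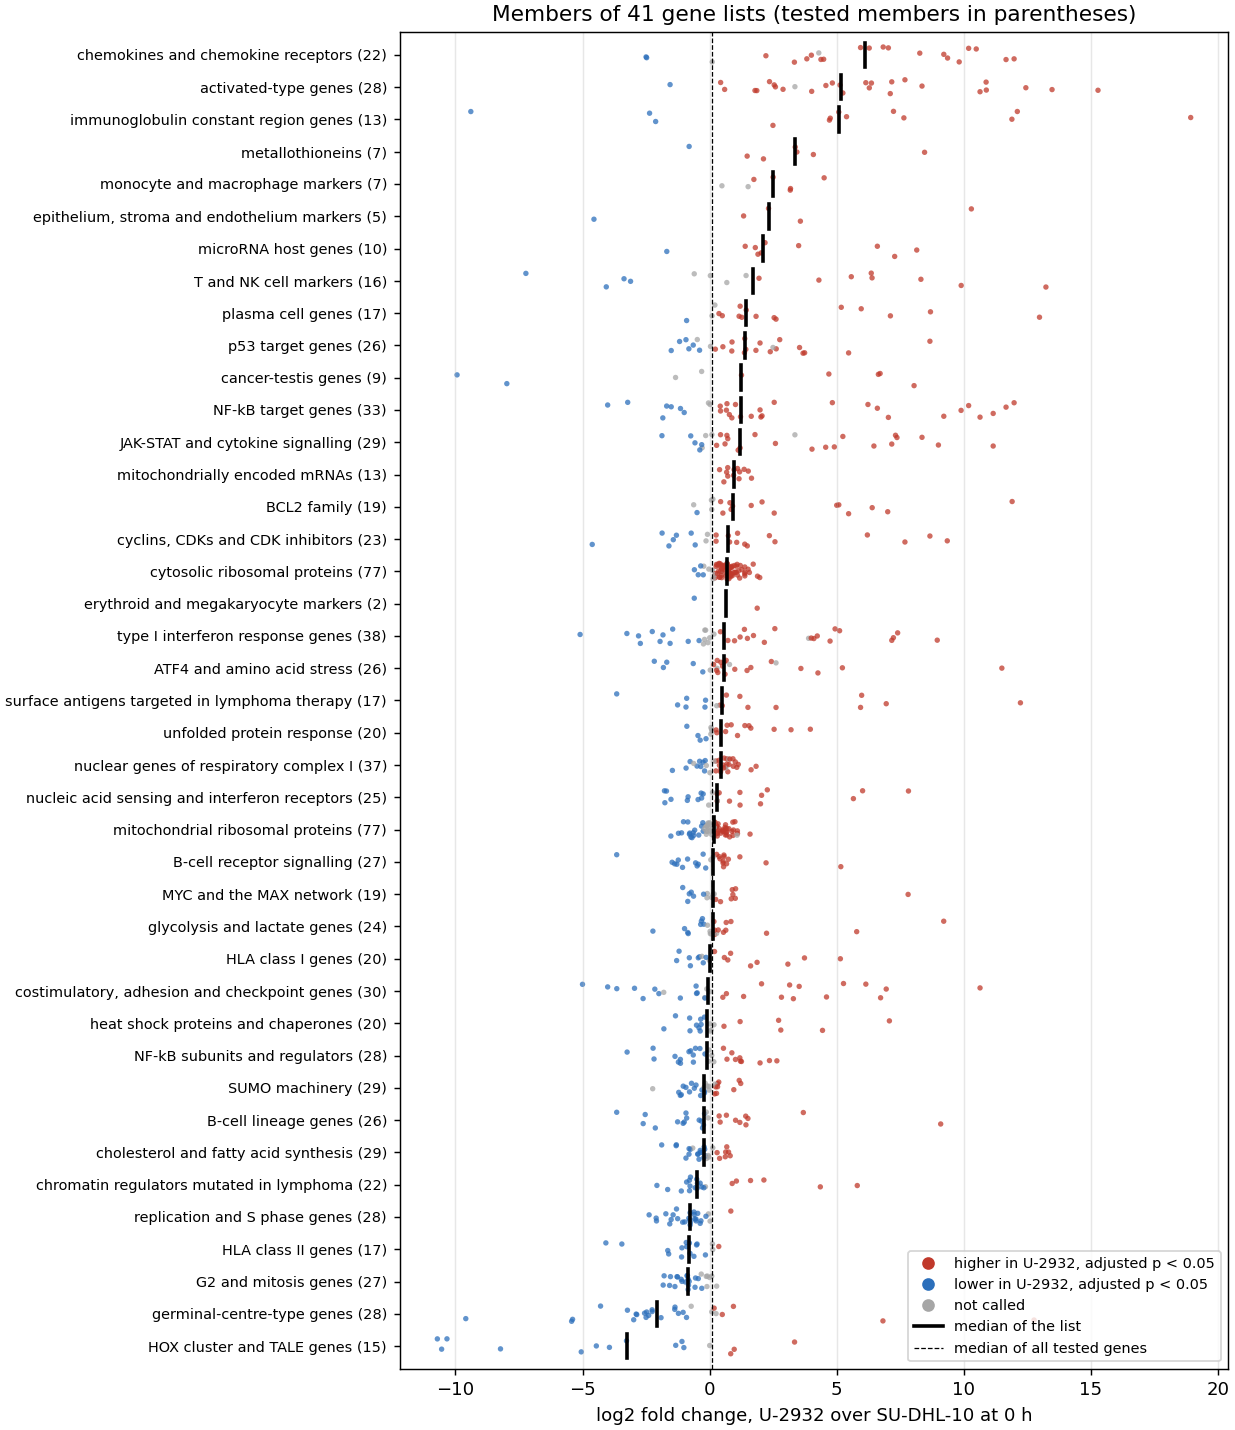
Each point is a tested member of a gene list, placed by its log2 fold change of U-2932 over SU-DHL-10 at 0 h; red is higher, blue lower and grey not called in U-2932, and the black bar is the list's median. The chemokine, activated-type and immunoglobulin lists have the highest fitted medians, and germinal-centre-type and HOX lists the lowest; the dashed line at 0.08 is the median of all tested genes.

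Chemokines and their receptors had a fitted list median of 6.11, above every other list, and of 6.81 without SU-DHL-10 replicate 1. With zero genes at their bound it was 4.43, under the activated-type list. Of 22 tested members 18 were higher in U-2932, all 18 at least 2-fold. The list also counts S1PR2, P2RY8 and GPR183, which are not chemokine receptors. Its lower members were S1PR2 and P2RY8. CCL4, which draws T cells and monocytes, had 55.4 and 59.0 CPM in U-2932, against 0.134 and 0.0458 CPM in SU-DHL-10, where 4 reads were counted (log2 9.21, SE 0.25). Without SU-DHL-10 replicate 1 the CCL4 value was 10.09. CXCR4, which holds B cells in the dark zone of the germinal centre, had 363 and 341 CPM in U-2932, against 14.5 and 17.0 CPM in SU-DHL-10 (log2 4.48, SE 0.09). GPR183, the oxysterol receptor EBI2, had 105 and 111 CPM in U-2932, against 0.0447 and 0.275 CPM in SU-DHL-10 (log2 9.36, SE 0.19). Without replicate 1 of SU-DHL-10 GPR183 was 8.57, and without replicate 2 it was 11.05. S1PR2 and P2RY8, which confine cells to the germinal centre, were thus lower, while CXCR4, which also holds cells there, was higher.

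Surface ligands and adhesion molecules were split, with 14 higher and 12 lower of 30 and a median of -0.05, a sign that turned with the filter and with single libraries. CD70, the ligand of CD27, had 703 and 676 CPM in U-2932, against 5.27 and 5.91 CPM in SU-DHL-10 (log2 6.94, SE 0.10). TNFSF9, the ligand of 4-1BB, had 150 and 145 CPM in U-2932, against 2.23 and 1.92 CPM in SU-DHL-10 (log2 6.14, SE 0.14). The integrin chains switched. ITGB1 had 141 and 153 CPM in U-2932, against 12.9 and 12.7 CPM in SU-DHL-10 (log2 3.52, SE 0.08). ITGB7, ITGB2 and ITGAL, of the leukocyte integrins, averaged 4.08, 72.7 and 43.4 CPM in U-2932, against 132, 447 and 193 CPM in SU-DHL-10.

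Antigens that lymphoma drugs bind were 10 higher and 6 lower of 17. ROR1, an orphan receptor kinase, had 26.4 and 31.6 CPM in U-2932 and no count in SU-DHL-10, at least 429-fold higher. TNFRSF17, which encodes BCMA, had 82.0 and 78.1 CPM in U-2932, against 12.3 and 13.9 CPM in SU-DHL-10 (log2 2.61, SE 0.12). CD22 and MS4A1, described above, were lower. CD79B was higher, at 237 CPM in U-2932 and 104 CPM in SU-DHL-10. These are transcript levels, and surface protein was not measured.

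HLA class II genes were lower in U-2932, 14 of 17 tested, with a median of -0.80, and HLA-DMA alone was higher. HLA-DPA1 had 197 and 176 CPM in U-2932, against 406 and 389 CPM in SU-DHL-10 (log2 -1.09, SE 0.07). CD74, the invariant chain, had 1815 and 1638 CPM in U-2932, against 3489 and 2975 CPM in SU-DHL-10 (log2 -0.90, SE 0.07). CIITA, their master regulator, averaged 73.9 CPM in U-2932 and 126 CPM in SU-DHL-10. HLA-DRB1 was not called, at 34.3 CPM in U-2932 and 31.5 CPM in SU-DHL-10.

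The classical class I genes went the other way. HLA-C had 401 and 360 CPM in U-2932, against 29.5 and 27.9 CPM in SU-DHL-10 (log2 3.73, SE 0.08). HLA-B had 516 and 490 CPM in U-2932, against 151 and 125 CPM in SU-DHL-10 (log2 1.86, SE 0.07). NLRC5, which drives class I transcription, had 63.0 and 60.7 CPM in U-2932, against 21.6 and 18.9 CPM in SU-DHL-10 (log2 1.61, SE 0.11). Processing genes were not higher as a group: PSMB8, PSMB9 and TAP2 were lower in U-2932 and TAP1 and B2M higher, and the median over 20 genes lay near 0 and changed sign with the scaling. HLA alleles are near-identical copies of each other and differ between lines, so their counts are uncertain.

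Interferon response genes split within the list. Of 38 tested members 19 were higher, 16 at least 2-fold, and 11 lower, 9 at least 2-fold, with a median of 0.57, or 0.30 with zero genes at their bound. The median moved with single libraries, to 0.32 without U-2932 replicate 1, 0.17 without U-2932 replicate 2, 0.75 without SU-DHL-10 replicate 1 and 0.26 without SU-DHL-10 replicate 2. MX1, an antiviral GTPase, had 60.7 and 57.8 CPM in U-2932, against 0.492 and 0.321 CPM in SU-DHL-10 (log2 7.16, SE 0.22). SAMD9L, an antiviral restriction factor, had 12.4 and 16.9 CPM in U-2932, against 0.536 and 0.412 CPM in SU-DHL-10 (log2 4.93, SE 0.27). OAS3, which makes the activator of RNase L, had 7.07 and 5.20 CPM in U-2932, against 56.1 and 60.8 CPM in SU-DHL-10 (log2 -3.26, SE 0.14). The ubiquitin-like modifier ISG15 averaged 14.3 CPM in U-2932 and 68.4 CPM in SU-DHL-10. Their relatives did not follow: OAS1 was higher in U-2932, OAS2 was not called at 43.4 CPM in U-2932 and 45.5 CPM in SU-DHL-10, and MX2 was lower.

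An ISRE-like word, GAAA and GAAA with 2 bases between them, the core of the interferon-stimulated response element, was in a promoter of 10 of 16 higher members (62.5%) and 6 of 7 lower ones (85.7%), against 4.05% of tested genes with a promoter. A related word bound by PU.1 with IRF4, GGAA and GAAA with 2 bases between them, was in 25% of the higher and 28.6% of the lower members, against 3.49%, and the words can overlap. The list was chosen for its known interferon control. The promoters below are of a pair of higher genes and a pair of lower genes, with the ISRE-like matches in capitals.
IFITM1, chr11:313790-314089, plus strand: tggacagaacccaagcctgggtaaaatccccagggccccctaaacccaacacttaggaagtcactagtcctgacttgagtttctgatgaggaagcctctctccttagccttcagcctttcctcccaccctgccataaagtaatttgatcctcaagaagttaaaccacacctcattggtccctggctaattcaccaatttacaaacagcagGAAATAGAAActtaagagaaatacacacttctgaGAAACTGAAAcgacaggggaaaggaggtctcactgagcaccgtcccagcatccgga
MX1, chr21:41420308-41420607, plus strand: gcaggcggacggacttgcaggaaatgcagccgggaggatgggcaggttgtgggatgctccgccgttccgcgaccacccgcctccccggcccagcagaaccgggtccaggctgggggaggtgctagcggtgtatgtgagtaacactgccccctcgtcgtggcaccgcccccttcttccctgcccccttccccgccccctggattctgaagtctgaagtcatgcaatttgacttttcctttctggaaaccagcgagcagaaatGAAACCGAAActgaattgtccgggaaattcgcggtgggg
ISG15, chr1:1013247-1013546, plus strand: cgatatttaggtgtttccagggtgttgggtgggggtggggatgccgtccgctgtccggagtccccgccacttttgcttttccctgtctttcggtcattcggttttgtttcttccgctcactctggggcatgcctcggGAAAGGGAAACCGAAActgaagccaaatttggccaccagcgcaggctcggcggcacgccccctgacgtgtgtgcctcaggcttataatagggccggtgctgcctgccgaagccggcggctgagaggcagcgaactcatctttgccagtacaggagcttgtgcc
OAS3, chr12:112938224-112938523, plus strand: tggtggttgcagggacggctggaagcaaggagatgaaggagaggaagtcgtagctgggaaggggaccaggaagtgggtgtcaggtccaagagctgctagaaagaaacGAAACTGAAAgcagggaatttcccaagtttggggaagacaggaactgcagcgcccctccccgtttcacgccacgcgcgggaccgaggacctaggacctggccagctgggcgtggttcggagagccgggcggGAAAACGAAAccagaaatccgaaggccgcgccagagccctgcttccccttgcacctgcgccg
IFITM1, ISG15 and OAS3 hold 2 matches each, overlapping in ISG15, and MX1 holds 1. IFITM1 averaged 2.999 CPM in U-2932 with no count in SU-DHL-10, and so the words stood in promoters that were higher and in promoters that were lower in U-2932.

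Sensors of nucleic acids and interferon receptors were 12 higher and 10 lower of 25. AIM2, a sensor of cytosolic DNA, had 38.8 and 32.5 CPM in U-2932, against 0.894 and 0.504 CPM in SU-DHL-10 (log2 5.65, SE 0.19). CGAS averaged 19.2 CPM in U-2932 and 3.97 CPM in SU-DHL-10. SAMHD1, which degrades nucleotides, had 41.1 and 46.6 CPM in U-2932, against 147 and 151 CPM in SU-DHL-10 (log2 -1.76, SE 0.08). TLR10 had 16.3 and 21.7 CPM in U-2932, against 49.97 and 59.6 CPM in SU-DHL-10 (log2 -1.52, SE 0.10). IFNAR1 was not called, at 59.0 CPM in U-2932 and 60.6 CPM in SU-DHL-10.

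The SUMO machinery, the target of the drug used in the series, was expressed in both lines, and few of its genes were 2-fold apart. SUMO is joined to proteins by an enzyme chain that starts with the E1 enzyme, a pair of SAE1 and UBA2. Of 29 tested members 9 were higher, 13 lower and 7 not called. By at least 2-fold, 2 were higher (6.9%) and 4 lower (13.8%), against 25% and 15.1% of all tested genes. These shares are not matched for level of expression. UBA2, the catalytic E1 subunit that TAK-981 engages, had 204 and 223 CPM in U-2932, against 319 and 331 CPM in SU-DHL-10 (log2 -0.60, SE 0.06). SAE1 had 264 and 241 CPM in U-2932, against 310 and 314 CPM in SU-DHL-10 (log2 -0.30, SE 0.06).

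Members at least 2-fold apart included the SUMO protease SENP5 and the SUMO ligase PIAS1. SENP5 had 92.7 and 104 CPM in U-2932, against 43.0 and 41.2 CPM in SU-DHL-10 (log2 1.22, SE 0.08). PIAS1 had 24.1 and 23.5 CPM in U-2932, against 56.1 and 54.6 CPM in SU-DHL-10 (log2 -1.22, SE 0.08).

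Mitochondrially encoded mRNAs took a larger share of U-2932 libraries. They made up 5.86% ± 0.0116 of gene counts in U-2932 and 3.17% ± 0.00901 in SU-DHL-10 (SD, n = 2 each; exact two-sided permutation p = 0.333, the lowest that 2 against 2 can give). All 13 were called higher, with a median of 0.96. MT-ND3 had 1680 and 1586 CPM in U-2932, against 519 and 524 CPM in SU-DHL-10 (log2 1.65, SE 0.08). MT-ND1 had 5980 and 5770 CPM in U-2932, against 1998 and 2103 CPM in SU-DHL-10 (log2 1.52, SE 0.10). MT-CO1, of complex IV, had the smallest difference, log2 0.39. No mRNA of this list was lower by edgeR (0 of 13), by DESeq2 or at an unadjusted p under 0.05.

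Nuclear genes of complex I were 22 higher and 9 lower of 37, with a median of 0.44. NDUFA11 had 50.7 and 54.5 CPM in U-2932, against 12.9 and 16.8 CPM in SU-DHL-10 (log2 1.83, SE 0.13). NDUFB5 had 162 and 155 CPM in U-2932, against 78.9 and 72.1 CPM in SU-DHL-10 (log2 1.07, SE 0.07). NDUFB8 and NDUFV2 were under 2 CPM in both lines, and how reads shared with a copy or a neighbour were counted is not stated.

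Glycolysis and lactate genes were 11 higher and 8 lower of 24. ENO2, the neuronal enolase, had 46.9 and 40.5 CPM in U-2932, against 0 and 0.137 CPM in SU-DHL-10, a ratio of 642 with a counting interval of 219 to 3116. ENO1 differed by log2 0.34. SLC16A3, the lactate exporter MCT4, had 57.9 and 52.4 CPM in U-2932, against 1.07 and 0.916 CPM in SU-DHL-10 (log2 5.78, SE 0.20). GAPDH was not called, at 2784 CPM in U-2932 and 2956 CPM in SU-DHL-10. PFKL, liver phosphofructokinase, had 149 and 156 CPM in U-2932, against 309 and 296 CPM in SU-DHL-10 (log2 -0.99, SE 0.06).

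Sterol and fatty acid synthesis was lower in 17 of 29 genes and higher in 7, with a median of -0.23. NSDHL, a sterol dehydrogenase, had 33.8 and 29.5 CPM in U-2932, against 118 and 116 CPM in SU-DHL-10 (log2 -1.89, SE 0.08). ACACA, acetyl-CoA carboxylase, had 77.5 and 65.8 CPM in U-2932, against 182 and 174 CPM in SU-DHL-10 (log2 -1.31, SE 0.07). HMGCS1 had 85.2 and 89.1 CPM in U-2932, against 190 and 245 CPM in SU-DHL-10 (log2 -1.32, SE 0.09). SQLE and IDI1, of the same route, were not called.

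Stress programmes differed gene by gene. Among heat shock genes 6 were higher and 10 lower of 20. BAG3, a co-chaperone, had 33.6 and 30.4 CPM in U-2932, against 1.47 and 1.47 CPM in SU-DHL-10 (log2 4.44, SE 0.19). HSPH1, the HSP110 exchange factor, had 121 and 133 CPM in U-2932, against 410 and 479 CPM in SU-DHL-10 (log2 -1.80, SE 0.08). The unfolded protein response had 12 higher and 4 lower of 20. HSP90B1, the chaperone GRP94, had 974 and 989 CPM in U-2932, against 116 and 97.9 CPM in SU-DHL-10 (log2 3.20, SE 0.07). ERN1, the sensor IRE1, had 34.9 and 39.2 CPM in U-2932, against 1.97 and 2.79 CPM in SU-DHL-10 (log2 3.96, SE 0.15). HSPA5, the chaperone BiP, was not called, at 1082 CPM in U-2932 and 1047 CPM in SU-DHL-10.

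Serine synthesis was split at its first and last steps. PHGDH, the first enzyme, had 153 and 143 CPM in U-2932, against 0.0447 and 0.0458 CPM in SU-DHL-10, 2 reads in all, a ratio of 3265 with a counting interval of 904 to 26971. PSPH, the last enzyme, had 29.4 and 25.6 CPM in U-2932, against 125 and 123 CPM in SU-DHL-10 (log2 -2.18, SE 0.08). PSAT1, between them, was not called, at 92.1 CPM in U-2932 and 90.7 CPM in SU-DHL-10. The OCI lines averaged 254 and 163 CPM of PHGDH, so SU-DHL-10 was the line without it. The ATF4 list as a whole had 17 higher and 5 lower of 26, with a median of 0.54.

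Cytosolic ribosomal protein genes were higher in U-2932 in 67 of 77 and lower in 4, with a median of 0.68. RPS19 had 3542 and 3266 CPM in U-2932, against 1031 and 1046 CPM in SU-DHL-10 (log2 1.71, SE 0.07). RPL35A had 1918 and 1753 CPM in U-2932, against 522 and 474 CPM in SU-DHL-10 (log2 1.88, SE 0.08). RPL10, RPL7, RPS13 and RPS20 were lower. These genes have many processed pseudogenes, so single members are uncertain. Mitochondrial ribosomal protein genes leaned the same way but less, 35 higher (45.5%) and 16 lower (20.8%) of 77. Among all tested genes 36.5% were higher and 32.2% lower. Their median was 0.18, and 3 were higher and 4 lower by at least 2-fold. Opposite cases were MRPS21 (log2 1.59) and MRPL18 (log2 -1.23).

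Chromatin regulators that are mutated in lymphoma were lower in 15 of 22 and higher in 6, with a median of -0.49. KMT2C, a histone H3 lysine methyltransferase, had 35.1 and 45.2 CPM in U-2932, against 161 and 178 CPM in SU-DHL-10 (log2 -2.08, SE 0.10). ARID1B, of the SWI/SNF complex, had 30.1 and 32.7 CPM in U-2932, against 95.4 and 102 CPM in SU-DHL-10 (log2 -1.65, SE 0.08). EZH2, of the Polycomb complex, had 143 and 153 CPM in U-2932, against 258 and 256 CPM in SU-DHL-10 (log2 -0.79, SE 0.06). The DNA methyltransferase DNMT3A stood out in the other direction. It had 41.8 and 39.9 CPM in U-2932, against 0.715 and 0.733 CPM in SU-DHL-10 (log2 5.81, SE 0.21), and OCI-LY3 and OCI-LY19 averaged 0.579 and 0.990 CPM. TBL1XR1 had 701 and 792 CPM in U-2932, against 165 and 175 CPM in SU-DHL-10 (log2 2.13, SE 0.07).

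HOX genes, which pattern the body axis and mark immature blood cells, were the list with the lowest median, -3.27. It was -2.58 without U-2932 replicate 1 and -4.29 without U-2932 replicate 2. Of 15 tested members 11 were lower and 3 higher, and 10 more did not pass the filter. HOXA7 had no count in U-2932, against 9.61 and 10.7 CPM in SU-DHL-10, at least 121-fold lower. HOXA9 had no count in U-2932, against 9.57 and 8.52 CPM in SU-DHL-10, at least 107-fold lower. Levels of HOXA genes in SU-DHL-10 stayed near 10 CPM or below.

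Host genes of microRNAs were higher in U-2932 in 9 of 10 tested, and DLEU2 was lower. MIR155HG, which gives rise to the B-cell oncogenic miR-155, had 39.8 and 44.5 CPM in U-2932, against 0.313 and 0.550 CPM in SU-DHL-10 (log2 6.60, SE 0.20). MIR17HG, the host of the miR-17-92 cluster, had 27.9 and 37.7 CPM in U-2932, against 10.2 and 8.71 CPM in SU-DHL-10 (log2 1.79, SE 0.13). Mature microRNAs were not measured; the ones these hosts carry are shown because their seeds (bases 2 to 8, in capitals) decide their targets. Sequences are RefSeq, GRCh38.p14.
hsa-miR-155-5p, chr21:25573983-25574006, plus strand: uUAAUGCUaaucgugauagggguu
hsa-miR-17-5p, chr13:91350618-91350640, plus strand: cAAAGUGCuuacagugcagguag
hsa-miR-20a-5p, chr13:91351072-91351094, plus strand: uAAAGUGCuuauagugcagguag
hsa-miR-18a-5p, chr13:91350756-91350778, plus strand: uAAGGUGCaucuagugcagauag
hsa-miR-19a-3p, chr13:91350939-91350961, plus strand: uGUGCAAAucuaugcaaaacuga
hsa-miR-19b-3p, chr13:91351245-91351267, plus strand: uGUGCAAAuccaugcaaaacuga
hsa-miR-92a-3p, chr13:91351361-91351382, plus strand: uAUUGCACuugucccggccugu
Within the MIR17HG cluster miR-17-5p and miR-20a-5p share a seed, as do miR-19a-3p and miR-19b-3p, and miR-155-5p shares its seed with none of them.

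Genes on in one line and off in the other were taken as those with at least 10 CPM in both libraries of a line and under 0.1 CPM in both of the other, chromosome Y left out. The levels chose them, so no test applies. U-2932 had 204 such genes, 190 of them protein-coding, and SU-DHL-10 had 28, 22 of them protein-coding. Among the strongest in U-2932 were RASSF6, a tumour suppressor of the RAS association family, the cold shock factor YBX3, the cadherin CDH2 and the transferase MGST1. RASSF6 had 361 and 414 CPM in U-2932, against 0.0447 and 0.0916 CPM in SU-DHL-10. CDH2 had 139 and 140 CPM, and MGST1 126 and 132 CPM, in U-2932, with no count in SU-DHL-10.

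On in SU-DHL-10 were NELL2, a secreted neural protein, and GTSF1, a germ-line factor. NELL2 had no count in U-2932, against 130 and 131 CPM in SU-DHL-10. Of the 204 genes on in U-2932, 92 were also off in both OCI lines and 37 on in both. Of the 28 on in SU-DHL-10, 13 were off in both OCI lines and 9 on in both. PHKA1 and TMX3 were among those 9, so there U-2932 was the line that lacked them: TMX3, a disulfide isomerase, had no count in U-2932, against 31.3 and 30.6 CPM in SU-DHL-10, and the OCI lines averaged 62.0 and 62.9 CPM.

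**Figure D4:**
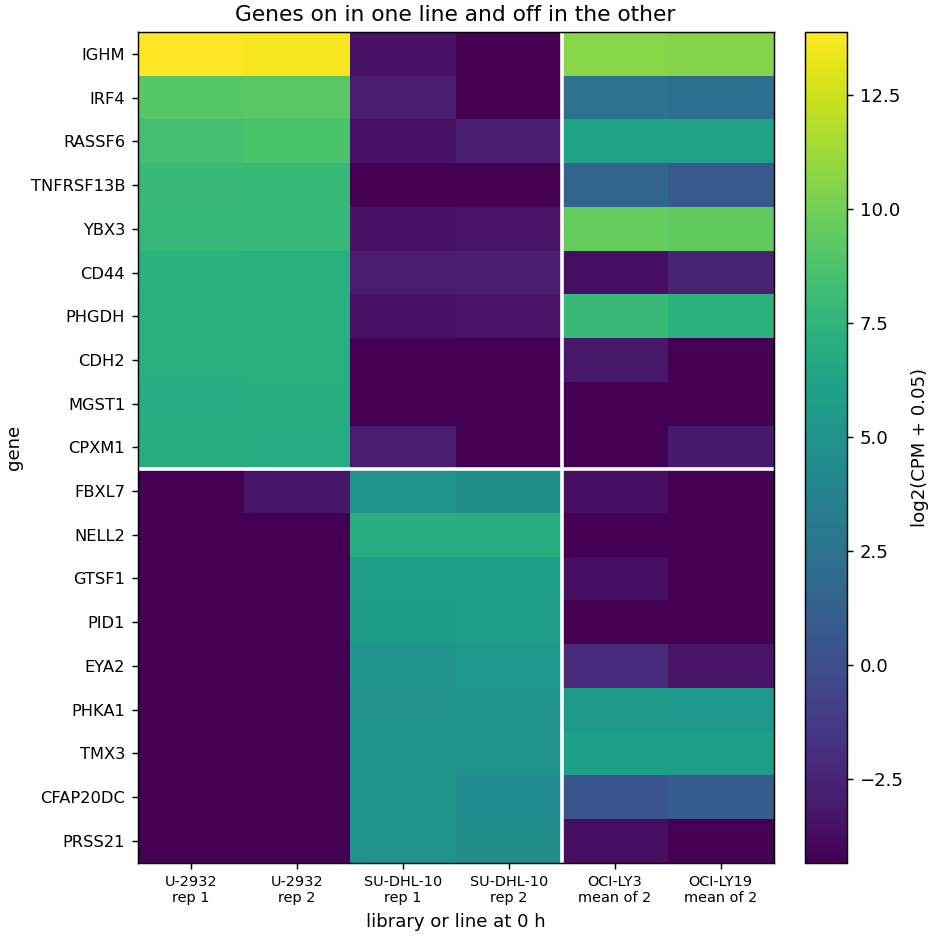
Colour gives log2(CPM + 0.05) at 0 h for genes with the highest levels among those on in U-2932 (10 rows) or on in SU-DHL-10 (9 rows), immunoglobulin variable segments, antisense transcripts and IDs without a symbol left out, in the U-2932 and SU-DHL-10 libraries and as means of OCI-LY3 and OCI-LY19. IGHM, YBX3 and PHGDH are also high in the OCI lines, CDH2 and MGST1 are not, and among the lower rows PHKA1 and TMX3 are bright in the OCI lines.

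The promoters of these genes were also read. The median ratio of observed to expected CpG was 0.734 over 151 genes on in U-2932, 0.659 over 19 on in SU-DHL-10 and 0.811 over 11545 tested genes. A ratio of at least 0.6 was held by 63.6%, 63.2% and 76.9%. Some on genes were next to each other once genes averaging under 10 CPM in both lines were passed over, such as IGHD and IGHM, CDH2, DSG2 and B4GALT6, ROR1 and RAVER2, and IL15RA and IL2RA.

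Chromosomes had different medians. Over 9915 tested genes at 5 CPM or more the median was -0.11, while chromosome 13 had -0.87, chromosome 7 -0.64, chromosome 8 -0.61 and X -0.39, and chromosome 19 had 0.40 and chromosome 18 0.32. Running windows of 15 neighbouring genes, looked at after the data were seen and not tested, had medians from -1.26 to 1.09 in the central 95%. The highest window, on chromosome 18 and ending at VPS4B, had a median of 3.50 with all 15 genes higher in U-2932. It holds SEC11C, LMAN1, PMAIP1, PHLPP1 and BCL2 besides NEDD4L and MALT1. LMAN1, a cargo receptor of secretion, had 3338 and 3675 CPM in U-2932, against 118 and 129 CPM in SU-DHL-10 (log2 4.83, SE 0.08). NEDD4L, a ubiquitin ligase, averaged 516 CPM in U-2932 and 1.24 CPM in SU-DHL-10, while MALT1, the paracaspase of the NF-kB pathway, differed by only log2 0.53.

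The lowest window was on X, ending at ZNF75D, with a median of -2.30 and all 15 genes lower in U-2932, among them HPRT1 and PHF6. PHF6, a chromatin protein mutated in leukaemia, averaged 71.6 CPM in U-2932 and 434 CPM in SU-DHL-10. A further low window on X, at -1.70, holds IKBKG, the regulatory IkB kinase subunit. A window on chromosome 13 at -1.71 holds HSPH1, USPL1 and RFC3, members of the heat shock, SUMO and replication lists. It was picked for its low median, so lower neighbours there follow from the choice. A window on chromosome 12 at 3.05 holds ETV6, YBX3, CD69 and CDKN1B. Copy number was not analysed here.

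**Figure D5:**
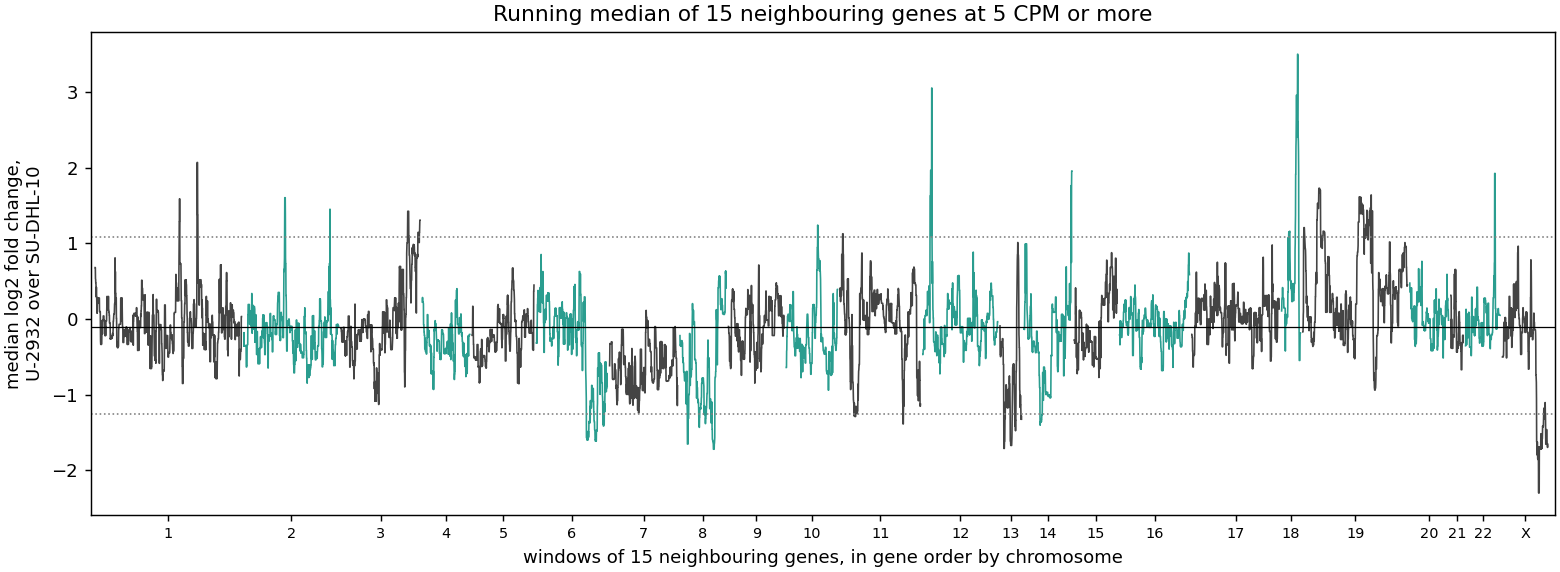
The line is the median log2 fold change (U-2932 over SU-DHL-10) of each run of 15 neighbouring genes with at least 5 CPM, in gene order by chromosome, colours alternating by chromosome; dotted lines mark -1.26 and 1.09, the central 95% of windows. Peaks stand on chromosomes 12 (3.05) and 18 (3.50) and the end of X lies lowest (-2.30).

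Markers of other cells were examined because a line could hold or resemble them. Summed over 25 T and NK cell markers, U-2932 had 115 and 104 CPM, against 253 and 218 CPM in SU-DHL-10. CD3D, CD2, TRBC1 and GZMA had no count in either line. Of 16 tested, 8 were higher and 4 lower. LCK, a T-cell SRC kinase, had 12.7 and 10.5 CPM in U-2932, against 212 and 174 CPM in SU-DHL-10 (log2 -4.07, SE 0.11). CD247, the zeta chain of the T-cell receptor, had 2.65 and 3.91 CPM in U-2932, against 32.8 and 35.6 CPM in SU-DHL-10 (log2 -3.37, SE 0.19). LCK and CD247 made up most of the sum in SU-DHL-10, so the sum and the counts of members pointed in opposite directions. TRBC2, a T-cell receptor constant gene, had 60.4 and 55.9 CPM in U-2932 and no count in SU-DHL-10. The part of these markers in other results was not tested.

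The 19 monocyte and macrophage markers summed to 6.96 and 8.68 CPM in U-2932, against 1.88 and 1.33 CPM in SU-DHL-10, and CD163, MPO and ELANE were at 0 in both; 5 of 7 tested were higher. The 19 markers of epithelium, stroma and endothelium summed to 10.4 and 13.9 CPM in U-2932, against 1.74 and 1.97 CPM in SU-DHL-10. EPCAM, at 6.66 and 8.52 CPM in U-2932 and no count in SU-DHL-10, made up most of that sum. The erythroid and megakaryocyte markers summed to 4.24 and 3.54 CPM in U-2932, against 4.83 and 3.76 CPM in SU-DHL-10, and the globins HBA1, HBA2 and HBB were at 0 in both. The 26 B-cell markers summed to 6939 and 6703 CPM in U-2932, against 10494 and 9372 CPM in SU-DHL-10. No B-cell marker was at 0 counts in either line.

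The same contrast at 8 h of TAK-981, between other libraries in the same fit with its shared estimate of spread, called 11087 genes (64%), 5912 higher (34.1%) and 5175 lower (29.9%), and 5981 at least 2-fold apart (34.5%), 3863 higher (22.3%) and 2118 lower (12.2%). Of the 4334 genes at least 2-fold higher at 0 h, 3514 (81.1%) were called higher at 8 h too, 27 lower and 793 not. Of the 2622 lower ones, 2131 (81.3%) were called lower at 8 h, 44 higher and 447 not. REL was among the genes whose gap narrowed, with log2 -3.25 at 0 h and -0.65 at 8 h. IRF4, BCL2 and CDH2 remained far apart at 8 h, with fitted values of 15.88, 10.04 and 15.01. Fitted values are no bounds where a line has few or no counts, as SU-DHL-10 had for IRF4 and CDH2 at 0 h.

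The other lines at 0 h were set beside the pair. Of the 4334 higher genes, both OCI-LY3 and OCI-LY19 were nearer to SU-DHL-10 in 2453 (56.6%) and nearer to U-2932 in 1275 (29.4%). The OCI lines were split in the other 606. Of the 2622 lower genes, both were nearer to SU-DHL-10 in 1354 (51.6%) and nearer to U-2932 in 867 (33.1%), with 401 split. The OCI lines mostly fell on the same side, so they may not serve as 2 separate references. Which line of the pair stood apart was not tested. For IRF4 the OCI-LY3 and OCI-LY19 means were 6.02 and 4.94 CPM, far under U-2932, although OCI-LY3 is usually counted with the activated type. CCR7 was an opposite case, at 231 and 451 CPM in the OCI lines, close to U-2932.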

How the data were processed

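RNA was measured in 16 libraries of 4 lymphoma lines at 0 and 8 h, and the 4 libraries of U-2932 and SU-DHL-10 at 0 h give the comparison. The deposited table holds whole-number read counts per gene, with 92 spike-in RNAs, made by the authors; the aligner, counter, annotation and strand setting are not given in the sources used here. Per the labels' protocols, polyA RNA was enriched and PCR duplicates were removed. Per the submitters' processing notes, Trimmomatic, Bowtie2 and DESeq2 and the builds GRCh38 and hg19 are named without a role. Symbols were read from the table of gene names supplied with the data, and 41937 of 58676 IDs had one.

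The deposited counts were tested with edgeR 4.0.16 (R 4.3.3, limma 3.58.1): TMM factors, filterByExpr on 8 groups of line and time, 1 mean per group over all 16 libraries (8 residual degrees of freedom), the quasi-likelihood F-test and Benjamini-Hochberg adjustment over 17327 genes. The median biological coefficient of variation was 8.54%. SE is the absolute log2 fold change over the root of F. Alternatives were DESeq2 1.42.0, other scalings, filters, sets of libraries, a test against 2-fold, a replicate block and each library left out. Depth was 17223675 to 22772308 gene counts per library, so 3 counts over a line's libraries are 0.0842 CPM in U-2932 and 0.0679 CPM in SU-DHL-10; intervals and floors cover counting error only.

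The lines, members and 41 gene lists were chosen with earlier results of these data known. SOD2, DDX58 and BAGE of the lists were not matched. Genes are named by rule: the 12 highest and 12 lowest called fold changes at a mean of 10 CPM, the 6 largest CPM differences per direction, up to 4 members per list by p, 18 genes set by hand and the 10 highest on genes per direction; other members named in the text were picked after their values were seen. Promoters (35116 windows, several for some genes; a gene counts once if any window matches) were matched by symbol for 11545 tested genes. Some members are counted in the lists and are not reported here by name.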

Additional observations from a re-analysis of the deposited data

Results flagged for a closer look

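The difference between U-2932 and SU-DHL-10 was not the same at 8 h of TAK-981 as at 0 h in 5691 of 17327 genes (32.8%), by edgeR's test of the difference between the differences. Among the genes at least 2-fold apart at 0 h, 904 of the 4334 higher in U-2932 and 1295 of the 2622 lower were in that count. REL is an example, lower in U-2932 by log2 -3.25 at 0 h and -0.65 at 8 h. The spike-in RNAs, used above only as another scaling, took 0.617% of counts in U-2932 and 0.0494% in SU-DHL-10. Their share was 12.5 times as high in U-2932, and OCI-LY19 had 0.572% and OCI-LY3 0.0769% at 0 h.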

How the results depend on the processing

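Without 1 library at a time, 11169 to 11337 genes were called at 0 h, 6715 to 6980 with a 2-fold difference, 9879 to 10058 at 8 h and 4762 to 5562 for the change between times. A test against a 2-fold null called 5410 genes at 0 h, 4510 at 8 h and 302 for the change between times. Of genes at least 2-fold apart, a filter of 5 CPM in 2 libraries left 4196 calls, and spike-in scaling gave 14988, 1170 higher and 13818 lower, against 4334 higher and 2622 lower with TMM. On and off genes numbered 66 in U-2932 and 15 in SU-DHL-10 at 20 CPM against 0 counts. DESeq2 called 11120 genes at 0 h. Replicates with the same number did not deviate together over all genes (r = -0.002 at 0 h and 0.015 at 8 h). This correlation cannot tell whether they share a day or batch that acts on some genes. With a replicate block 11819 genes were called at 0 h (6899 at least 2-fold), 10990 at 8 h and 5601 for the change between times. 

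The medians of 4 lists changed sign. The costimulatory list had 0.038 with the stricter filter and -0.19 to 0.092 without 1 library, above 0 without replicate 1 of either line. HLA class I had 0.044 with DESeq2 and with RLE factors, 0.016 without TMM, 0.085 with the stricter filter, 0.022 with only the 2 lines, 0.015 with only 0 h libraries and -0.052 to 0.034 without 1 library. Cancer-testis genes had -1.26 with the stricter filter and -0.30 with only the 2 lines or only 0 h libraries, and erythroid markers -0.52 with the stricter filter; the cause was not tested.

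Over 194 named genes, 2463 of 2511 alternative values kept direction and call, 48 lost the call and 0 reversed. Calls of CD14, CSF1R, ITGAX, ITGA2B and EPOR, among others, were lost without some library. With 2 libraries per line no exact permutation test can go below p = 0.333, and genes with under 10 reads in a line have folds set by counting.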

Other observations

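Some abundant transcripts, named by the size of their CPM difference, were lower in U-2932. ACTB, beta-actin, had 5753 and 5540 CPM in U-2932, against 13378 and 11224 CPM in SU-DHL-10 (log2 -1.12, SE 0.08). FLNA, filamin A, which crosslinks actin, had 437 and 434 CPM in U-2932, against 1406 and 1530 CPM in SU-DHL-10 (log2 -1.75, SE 0.06). LCP1, the leukocyte plastin, had 1058 and 1051 CPM in U-2932, against 2564 and 2340 CPM in SU-DHL-10 (log2 -1.22, SE 0.06). PABPC1, the poly(A) binding protein, was lower too (log2 -1.35, SE 0.07).

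Metallothioneins, which bind zinc and copper, were mostly higher in U-2932 at low levels. Of the 12 members of their list 7 were tested, with 6 higher and 1 lower, and 5 did not pass the filter. The list median was 3.37 and fell to 2.42 without SU-DHL-10 replicate 2. MT2A had 27.1 and 24.9 CPM in U-2932, against 9.30 and 9.39 CPM in SU-DHL-10 (log2 1.47, SE 0.13). MTF1, an activator of these genes and not a metallothionein itself, was lower. Cancer-testis genes, normally limited to germ cells, were on in a different set per line: MAGEA12 had no count in U-2932, against 5.32 and 6.55 CPM in SU-DHL-10, while PAGE5 had 2.06 and 1.13 CPM in U-2932 and no count in SU-DHL-10. Of 9 tested, 5 were higher in U-2932 and 2 lower.

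Genes of Fc receptor-like proteins and lipid antigen presentation on chromosome 1 sat in a high window (median 2.07) yet differed in direction. FCRL5 averaged 264 CPM in U-2932 and 0.136 CPM in SU-DHL-10, while FCRL1 averaged 5.75 CPM in U-2932 and 15.3 CPM in SU-DHL-10. These genes were picked after their values were seen.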
